A study of Rattus norvegicus with 90 samples.

Results

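Thioacetamide is an organosulfur compound that injures the liver. The compound itself does little harm until it has been oxidized by enzymes of the liver cells, and the damage typically starts around the central veins of the hepatic lobules. The kidney filters the blood and reabsorbs solutes along its tubules, and it carries its own, different set of drug-metabolizing enzymes. The comparison described here is between the early transcript responses of these 2 organs to the same high dose: for each transcript, the change in the liver 8 h after exposure was set against the change in the kidney at the same time.

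The samples were chosen by their labels as liver and kidney, 8 h, high dose and vehicle, which gave 20 of the 90 libraries of the series, 5 in each of 4 groups. Male Sprague-Dawley rats, bought at 10 weeks of age and carrying a jugular catheter, received either 100 mg/kg of thioacetamide or 3 ml/kg of saline (0 mg/kg) into the peritoneum and had water but no food until the tissues were taken 8 h later. Liver RNA came from liver tissue and kidney RNA from the whole kidney, powdered, so that values are averages over all cell types of the organ, and fewer cells of a type cannot be told apart from less RNA per cell. The study took the organs from the same rats, but the labels do not say which liver and kidney came from a single rat, so the 20 libraries were treated as separate samples. The transcripts carry Ensembl identifiers (ENSRNOT) that no file or table used here pairs with genes, so the organ labels were not checked against marker genes, changes could not be assigned to pathways, and no sequence was shown. Transcripts without a printed identifier are given by their length.

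Total estimated counts were 16641408 to 36303248 per library, with a median of 25410324. Libraries of a single organ were alike in their transcript levels (lowest Spearman correlation, 0.892) and those of different organs were not (highest, 0.728). A kidney vehicle library, MS-100, stood apart. On the first principal component of the 10 kidney libraries it lay at 47.6, on the side of the high-dose libraries (6.68 to 39.6), whereas the other 4 vehicle libraries lay between -54.3 and -22.8. It is also the only vehicle library here with a number above 90 in its label, which 3 of the 5 high-dose kidney libraries also have, and the main counts are given with and without it below. In the liver, MS-16 (vehicle) and MS-14 (high dose) had 23.6% and 28.9% of their counts on genomic intervals instead of transcripts, against 4.08% to 8.76% in the other 8.

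More transcripts changed in the liver than in the kidney, and for many of them the changes of the 2 organs differed. Of 40071 rat transcripts listed, 19891 passed the filter on low counts. A liver or kidney change was called where edgeR's quasi-likelihood test gave an adjusted p of 0.01 or less and the fold change was at least 0.60 in size on the natural-log scale (0.866 on the log2 scale). In the liver 3849 transcripts were called (19.4% of those tested), of which 2411 rose (12.1%) and 1438 fell (7.23%). The excess of rises shrank with any single liver library left out, to 2325 of 4075 without MS-16 and 2094 of 3792 without MS-10. DESeq2 size factors in edgeR gave 2166 rises of 3867, and limma on log2(TPM + 1) values 1978 of 2505. In the kidney 275 were called (1.38%), of which 206 rose (1.04%) and 69 fell (0.347%). Without MS-100 the kidney calls numbered 696, with 320 rises and 376 falls, and without the high-dose kidney library MS-101 they numbered 175. In the libraries numbered up to 90 alone, which hold 2 high-dose kidneys, kidney calls numbered 77 and called differences between the organs 1953, and with a term for numbers above 90 they were 211 and 2498. The libraries numbered above 90 hold a single vehicle kidney and were not fitted alone.

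The comparison itself is the difference of effects, the log2 fold change in liver minus that in kidney, tested as the interaction of organ and dose over all 20 libraries and called at an adjusted p of 0.01 or less with no limit on size. It was called for 2862 transcripts, 14.4% of those tested. The liver effect was the higher in 1697 (8.53%) and the lower in 1165 (5.86%), so that 59.3% of the calls were higher in liver. That excess rested on the full set of liver libraries, on the scaling and on the tool. DESeq2 size factors in edgeR, with all 20 libraries kept, gave 2936 calls, of which 52.2% were higher in liver. With any single liver library left out, 49% to 51% of the calls were higher in liver, and DESeq2 gave 50.8% of 4157. With any single kidney library other than MS-100 left out the share was 58.4% to 60.3%. Without MS-100 the difference was called for 4430 transcripts, and the liver effect was the higher in 54.9% of them. Without MS-16 and MS-14 it was called for 2827 transcripts, with the liver effect higher in 1414, and the liver calls numbered 3759. On log2(TPM + 1) values, tested with limma, 80.3% of 1790 called differences were higher in liver. Of the 2862, 2698 (94.3%) passed the filter on low counts in the liver libraries alone and in the kidney libraries alone, as did 15571 (78.3%) of all tested. A transcript could pass through the high-dose group of an organ only, and 26 of the 2862 had 0 counts in all 5 vehicle livers. The median of the difference was 0.06 over all transcripts tested and 0.88 over those called. The median of its absolute size was 0.59 over all tested and 1.25 over those called.

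The called differences fell into 5 classes by which organ's own change was called. There were 1984 transcripts (69.3% of the 2862) changed in the liver only, 83 (2.90%) changed the same way in both organs, 19 (0.664%) changed in the kidney only, and 5 (0.175%) changed in opposite directions. The remaining 771 (26.9%) passed the test of the difference but the change of neither organ was called. Without MS-100 the respective numbers were 2245, 95, 159, 37 and 1894. Of the members with all libraries, 1920 of the 1984, 76 of the 83, all 19, all 5 and 706 of the 771 stayed in their class.

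**Figure D1:**
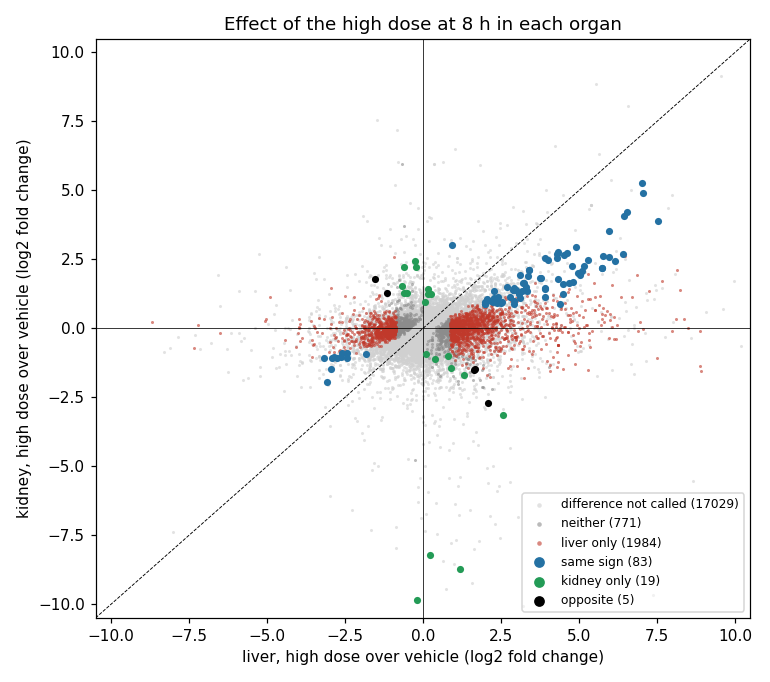
Each point is 1 of the 19891 transcripts tested, with the log2 fold change of the high dose over vehicle in liver on the horizontal axis and in kidney on the vertical axis; colors give the class and its number of transcripts, and the dashed line marks equal changes. The larger change is in the liver for 1980 of the 1984 liver-only and 82 of the 83 same-sign transcripts. The 5 opposite ones lie in the upper left and lower right.

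The liver-only class held 1297 rises and 687 falls. That excess of rises also shrank with any single liver library left out. Without MS-16 the liver effect was the higher in 1264 of 2228 liver-only transcripts, and without MS-17 in 982 of 1802. DESeq2 size factors in edgeR gave 1150 of 2006, and limma on log2(TPM + 1) values 986 of 1217. The 1297 rises had a median log2 fold change of 1.63 in liver and 0.05 in kidney, and the 687 falls had -1.25 in liver and -0.07 in kidney. That the kidney values lie near 0 follows in part from the definition of the class. Within it the kidney estimate had the sign of the liver change in 57.3% of the transcripts. High-dose and vehicle libraries did not overlap in the liver for 1890 of the 1984 transcripts (30.0% of all tested did not overlap), and did not overlap in the kidney for 271 (8.43% of all tested).

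ENSRNOT00000080410, a transcript of 2497 bases, had the largest difference among liver-only rises with at least 2 CPM (counts scaled to library size, with TMM factors) on average in both organs. In liver it was at 0 in 4 vehicle libraries and at 0.0557 CPM, a single count, in MS-29, and at 4.03, 7.48, 10.7, 13.3 and 6.12 CPM after the high dose. In kidney it was at 4.53, 3.48, 2.33, 2.01 and 1.44 CPM in the vehicle libraries and at 1.62 to 3.3 CPM after the high dose. The transcript was thus nearly undetected in vehicle livers, at kidney levels or above in high-dose livers, and overlapping between the doses in the kidney. Its liver mean passed the 2 CPM limit only through the high-dose group, as did that of the second rise below. The ratio of the summed liver counts was 731 (95% counting interval, 131 to 28910), and the fitted difference of 8.97 ± 0.75 (SE, adjusted p = 2.93e-07, edgeR) depends on how a near-zero group is fitted. The kidney change was -0.08 ± 0.35 (adjusted p = 0.928, edgeR).

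The second liver-only rise, a transcript of 3776 bases, was detected in all 20 libraries. Liver vehicle libraries held 0.167 to 0.738 CPM and high-dose livers 14.3, 64.5, 96.6, 45.9 and 54.3 CPM. Kidney libraries held 0.888 to 3.63 CPM with vehicle and 2.02 to 4.24 CPM with the high dose. The liver groups were fully apart, with MS-8 the lowest of the high-dose livers, whereas the kidney groups overlapped, and the difference was 6.70 ± 0.67 (SE, adjusted p = 1.79e-06, edgeR). The next 3 liver-only rises had differences of 6.57, 6.16 and 5.86.

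Among liver-only falls, ENSRNOT00000004803, of 3719 bases, ranked first. Its liver levels were 23.1, 13, 24.2, 22.6 and 12.8 CPM with vehicle and 1.71, 1.02, 1.22, 1.46 and 0.669 CPM with the high dose. Its kidney levels were 1.48 to 2.37 CPM with vehicle and 2.10 to 3.29 CPM with the high dose. Of the high-dose livers, 4 of 5 lay below every kidney library, and the kidney groups overlapped. The liver change was -3.98 ± 0.26 and the kidney change 0.33 ± 0.24, a difference of -4.32 ± 0.35 (SE, adjusted p = 2.20e-07, edgeR). A second fall, of 3752 bases, went from 29.6 to 100.4 CPM in vehicle livers to 1.81 to 5.71 CPM in high-dose livers, and held 2.88 to 3.89 and 2.35 to 4.87 CPM in the kidney groups. It shared reads with other targets in all 20 libraries. The next 3 falls had differences of -3.51, -3.48 and -3.26.

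The same-sign class shows transcripts that moved in both organs by unequal amounts. Of its 83 transcripts, 72 rose in both organs and 11 fell in both (83 and 12 without MS-100), and the liver change was the larger in 82. Among the 72 rises the median log2 fold change was 3.77 in liver and 1.65 in kidney, and the median kidney change was 0.466 of the liver change on the log2 scale. Membership required a called change in each organ, so transcripts with small kidney changes are not in this class.

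The same-sign transcript with the largest difference, of 825 bases, was at 0.408 to 1.30 CPM in vehicle livers and 35.6, 81.1, 103.4, 49.7 and 95.4 CPM in high-dose livers. In the kidney it was at 0.639, 0, 1.02, 0.726 and 0.915 CPM with vehicle and at 4.18, 5.10, 4.60, 4.33 and 3.39 CPM with the high dose. It shared reads with other targets in 19 of the 20 libraries. Both pairs of groups were fully apart, and the changes were 6.42 ± 0.48 in liver and 2.69 ± 0.43 in kidney, which gave a difference of 3.73 ± 0.63 (SE, adjusted p = 0.000259, edgeR). The second, of 2164 bases, rose from 2.80 to 5.21 CPM to 121 to 435 CPM in liver and from 3.13 to 4.12 CPM to 11.7 to 30.1 CPM in kidney. Its vehicle levels overlapped between the organs, and its difference was 3.72 ± 0.47 (SE, adjusted p = 1.54e-05, edgeR).

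**Figure D2:**
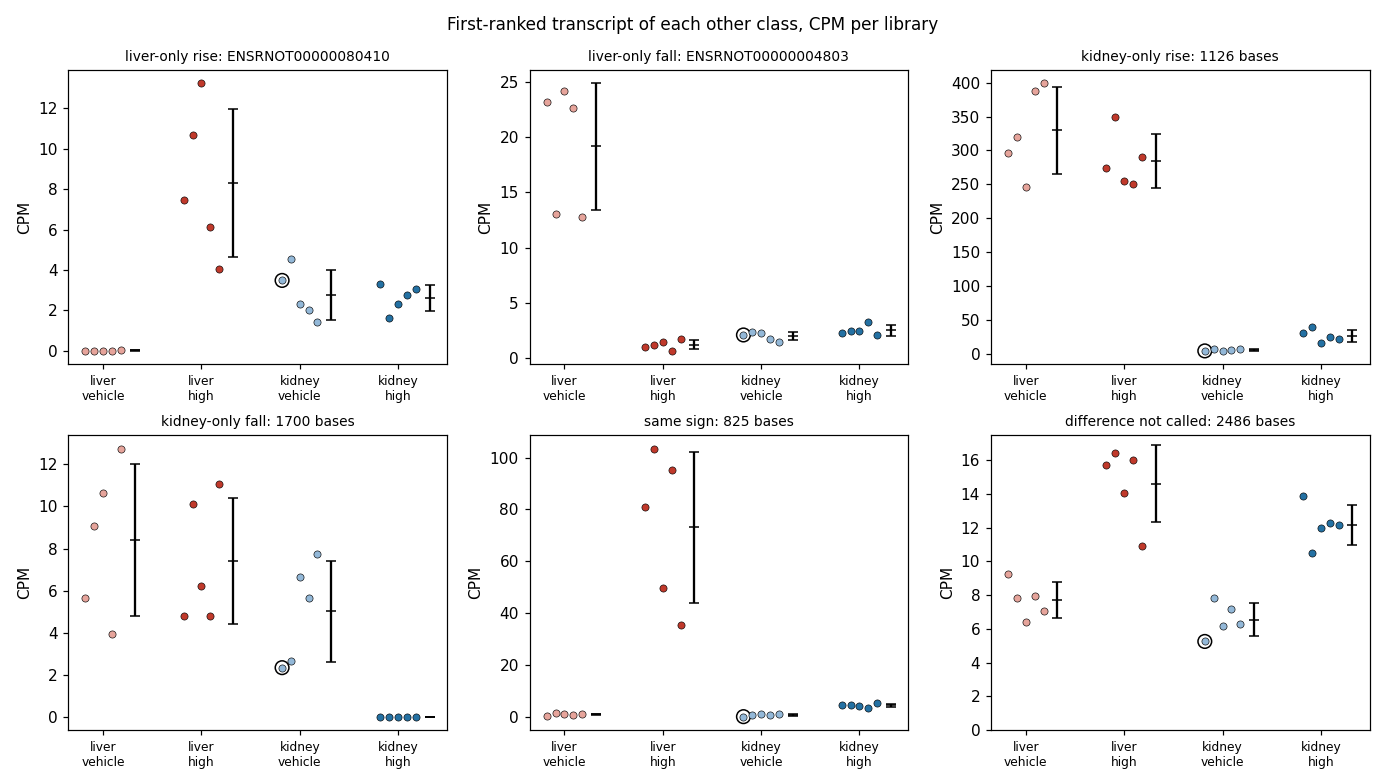
Points are the CPM of single libraries in 4 groups of 5, and the bars beside them are the mean and SD; the open ring marks the kidney vehicle library MS-100. The panels show the first-ranked transcript of each class other than opposite, and a transcript called in both organs whose difference was not called: the liver-only fall drops from 12.8 CPM or more to 1.71 CPM or less in liver while kidney stays between 1.48 and 3.29 CPM.

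Opposite directions were rare. All 5 such transcripts passed the filter in both organs, 3 rising in liver and falling in kidney and 2 the reverse. The largest difference was that of ENSRNOT00000018170, of 1337 bases, which shared reads with other targets in all 20 libraries, so that its counts are estimates of how those reads divide. In liver it was at 4.08, 3.06, 2.03, 1.60 and 1.78 CPM with vehicle and at 10.3, 11.5, 9.54, 9.68 and 12.6 CPM with the high dose. In kidney it was at 25.8, 6.62, 29.8, 36.8 and 29 CPM with vehicle and at 4.94, 3.73, 4.24, 3.25 and 3.70 CPM with the high dose. Neither pair of groups overlapped, although MS-100, at 6.62 CPM, lay close to the high-dose kidneys. The mean level was 25.6 CPM in vehicle kidneys against 2.51 CPM in vehicle livers, and after the high dose it was 3.97 against 10.7 CPM, with the order of the organs turned. The change was 2.09 ± 0.34 in liver and -2.69 ± 0.33 in kidney, a difference of 4.78 ± 0.47 (SE, adjusted p = 1.58e-06, edgeR), and of 5.02 without MS-100.

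Another 2 transcripts rose in liver and fell in kidney. That of 3346 bases was at 30.6 to 46.8 CPM in vehicle livers and 88.1 to 155 CPM in high-dose livers, and at 288 to 470 CPM in vehicle kidneys and 128 to 141 CPM in high-dose kidneys. The organs were far apart with vehicle and overlapped with the high dose. Its difference was 3.16 ± 0.22 (SE, adjusted p = 6.07e-08, edgeR). That of 3754 bases was at 9.27, 12.4, 23.4, 11.5 and 10.6 CPM in vehicle livers and 23.1 to 83.5 CPM in high-dose livers, which overlapped only through the vehicle library MS-16, and it fell in kidney from 125 to 259 CPM to 46.4 to 77.4 CPM. Its difference was 3.12 ± 0.45 (SE, adjusted p = 6.13e-05, edgeR). Both shared reads with other targets, in 18 and 19 of the 20 libraries.

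The reverse was seen in ENSRNOT00000004475, of 1668 bases, whose counts were whole in all 20 libraries. It was at 8.92, 13.2, 7.56, 8.13 and 10.8 CPM in vehicle livers and 6.09, 4.09, 3.52, 3.69 and 4.32 CPM in high-dose livers. In kidney it was at 2.16, 2.48, 3.17, 2.20 and 2.11 CPM with vehicle and at 4.80, 6.69, 7.54, 6.07 and 4.18 CPM with the high dose. No groups overlapped within an organ, and the high-dose values of the 2 organs overlapped. It fell by 1.17 on the log2 scale in liver and rose by 1.27 in kidney, a difference of -2.44 ± 0.29 (SE, adjusted p = 1.01e-05, edgeR). The other, of 1035 bases, lay below the 2 CPM limit in liver and is given here because it completes the 5. It was at 0.912 to 1.93 CPM in vehicle livers and 0.343 to 0.753 CPM in high-dose livers, and at 4.96, 17.3, 3.06, 4.77 and 4.61 CPM in vehicle kidneys and 15.7 to 30.3 CPM in high-dose kidneys. Its only overlapping kidney library was MS-100, at 17.3 CPM, and without it the kidney change went from 1.81 to 2.47 and the difference from -3.35 to -4.01. Without MS-100 the opposite class counted 37 transcripts, of which 34 rose in liver and fell in kidney. Leaving out MS-16 gave 9, and leaving out any of the kidney libraries MS-46, MS-98, MS-101, MS-102 and MS-57 gave 3.

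**Figure D3:**
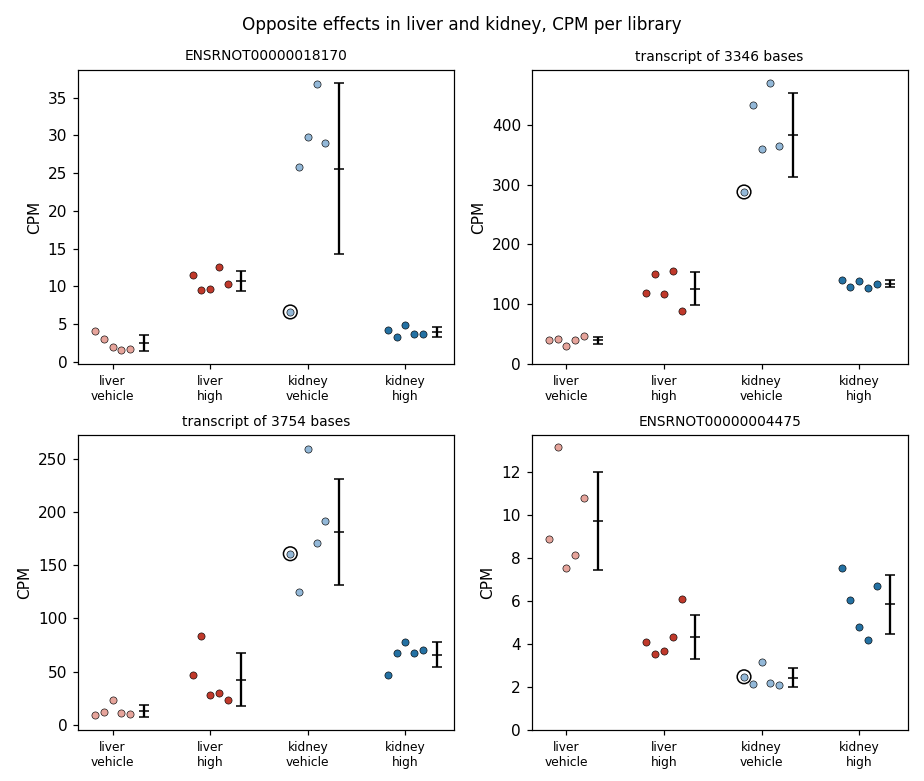
Points are the CPM of single libraries in 4 groups of 5 for the 4 opposite transcripts above 2 CPM in both organs, with the mean and SD beside them; the open ring marks the kidney vehicle library MS-100. The first 3 rise in liver and fall in kidney, and the fourth falls in liver and rises in kidney, from 2.11 to 3.17 CPM with vehicle to 4.18 to 7.54 CPM with the high dose.

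The kidney-only class was small, with 10 rises and 9 falls. It also depended on single libraries, counting 159 transcripts without MS-100 (of which 27.7% had a higher kidney estimate after the high dose), 31 without MS-38 and 11 without MS-101. The first-ranked rise, of 1126 bases, was a transcript with far more signal in the liver. It shared reads with other targets in all 20 libraries, so its counts are estimates of how those reads divide. It was at 297, 320, 246, 387 and 399 CPM in vehicle livers and 250 to 350 CPM in high-dose livers, which overlapped. In kidney it was at 6.58, 4.37, 4.63, 5.94 and 6.68 CPM with vehicle and at 15.5, 21.8, 30.2, 39.3 and 25.5 CPM with the high dose. The kidney change was 2.23 ± 0.21 and the difference -2.44 ± 0.29 (SE, adjusted p = 8.92e-06, edgeR). The second, of 2272 bases, was at 6.23 to 8.04 CPM in vehicle kidneys and 17.4 to 25.5 CPM in high-dose kidneys, while liver groups of 2.77 to 8.01 and 1.97 to 4.57 CPM overlapped.

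The first-ranked kidney-only fall, of 1700 bases, was undetected in every high-dose kidney. Vehicle kidneys held 2.66, 2.33, 6.63, 5.67 and 7.74 CPM, a sum of 768 counts, and all 5 high-dose kidneys held 0. Taking 3 counts over the group as the floor, the level was at least 217-fold lower after the high dose. In liver it was present at both doses, at 3.93 to 12.7 CPM with vehicle and 4.78 to 11.1 CPM with the high dose. Its counts were not whole in 15 libraries, so reads were divided between it and other targets, and the fitted difference (adjusted p = 6.32e-06, edgeR) has no usable size. The second fall, of 1221 bases, was at 2.44 to 4.77 CPM in vehicle kidneys and 0.541 to 1.69 CPM in high-dose kidneys, against 1.56 to 3.50 and 3.39 to 5.92 CPM in the liver groups. There the liver estimate was 0.89, which did not pass (adjusted p = 0.0196, edgeR), and the difference was 2.32 ± 0.42 (SE, adjusted p = 0.000494, edgeR). This second fall also shared reads with other targets, in all 20 libraries.

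Not every transcript separated the organs. Of the 275 kidney calls, 209 (76%) were also called in the liver, where they made up 5.43% of the liver calls. Of these, 174 rose in both organs, 30 fell in both and 5 were the opposite ones. Without MS-100 the overlap was 327, which was 47% of the kidney calls and 8.07% of the liver calls, and 223 of them rose in both organs and 67 fell in both. The difference was called for 88 of the 209 and not for 121, and without MS-100 it was called for 132 and not for 195. For 24 of the 121 the 95% interval of the difference lay inside ± 0.866, and for 51 of the 195. For the rest the interval reached beyond that limit, so an uncalled difference there does not show equal changes. The 121 had median changes of 1.96 in liver and 1.53 in kidney.

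A transcript of 2486 bases had the smallest difference among those called in both organs. It was at 6.40 to 9.27 CPM in vehicle livers and 10.9 to 16.4 CPM in high-dose livers, and at 5.25 to 7.86 CPM in vehicle kidneys and 10.5 to 13.9 CPM in high-dose kidneys. The levels and the changes of the organs were close, with a liver change of 0.93 ± 0.14, a kidney change of 0.89 ± 0.14, and a difference of 0.04 with a 95% interval of -0.37 to 0.44 (edgeR).

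A call in liver without one in kidney did not by itself make a difference. Of the 3849 liver calls, the difference was called for 2072 (53.8%). In another 1656 the kidney change was not called and the difference was not called either, and for 1402 of these (84.7%) the kidney estimate had the sign of the liver change. Without MS-100 the respective numbers were 1480 and 1277. Such a share follows in part from the selection, because an uncalled difference favors estimates of the same sign. In the liver-only class, where the difference was called, the share was 57.3%. Among liver rises the median kidney estimate was 0.13 for the 1056 under 1.5 on the log2 scale, 0.26 and 0.37 in the middle ranges, and 0.71 for the 409 of at least 3. Among liver falls no such order held, with -0.17 for the 987 under 1.5 in size, -0.30 and -0.44 in the middle ranges, and -0.27 for the 65 of at least 3. Over the 15571 transcripts that passed the filter in both organs, the liver and kidney changes had a Spearman correlation of 0.268 and a Pearson correlation of 0.339, as a description over transcripts of the same 20 libraries, which share their normalization.

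The 771 transcripts with a called difference but no called organ had small median changes, on opposite sides of 0 in the 2 organs. In 316 the liver estimate was above 0, with medians of 0.73 in liver and -0.21 in kidney, and in 455 it was below 0, with medians of -0.63 and 0.11. The estimates of the 2 organs had the same sign in 27%. Opposite signs follow in part from the definition of the class, which needs a called difference without a called change in either organ. Over all 771 the medians were -0.45 in liver and 0.02 in kidney. Not every change in the class was small. A member of 3288 bases, under 2 CPM in every kidney library, had a kidney estimate of 3.72 that was not called. Without MS-100 the class counted 1894 transcripts, with the liver estimate above 0 in 753 and below 0 in 1141, and the same sign in 13%.

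Transcripts measured mainly in liver, with at least 10 CPM there on average and under 0.5 CPM in kidney, leave little room to measure a kidney change. A rise of this kind, of 657 bases, was at 3.07 to 12.5 CPM in vehicle livers and 126 to 299.9 CPM in high-dose livers. Kidney libraries held 0.0785 to 1.04 CPM of it. A fall, of 4824 bases, went from 25.0 to 41.2 CPM to 2.01 to 3.3 CPM in liver, with 0.0266 to 0.271 CPM in kidney. Both shared reads with other targets in all 20 libraries. In 2 further transcripts of this kind, of 3288 and 2136 bases, the difference of effects was negative, with liver estimates of -0.61 and -0.94 and kidney estimates, from under 2 CPM in every library, of 3.72 and 2.59.

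The levels of the classes in vehicle organs were also compared. Vehicle livers and kidneys taken at 24 h, other libraries than those of the comparison, served for the level per length (TPM, an abundance scaled by length and library). By the study's methods those rats had food until the last 8 h. Of all transcripts tested, 20.7% had the higher mean TPM in liver. The share was 21.5% for liver-only rises, 30.9% for liver-only falls, 66.7% for same-sign rises and 70% for the 10 kidney-only rises. These shares include the liver vehicle library MS-1, whose values are described next. Without it they were 16.1% for all tested, 6.25% for liver-only rises, 32.8% for liver-only falls, 9.72% for same-sign rises and 70% for kidney-only rises, so the order of the liver-only and same-sign rises relative to all transcripts rested on MS-1.

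The 24 h samples came from other rats, which the study dosed in the late afternoon instead of the morning and fed until the last 8 h. Time since exposure is thus not all that differs. The same difference of effects was fitted on the 24 h samples. There the liver vehicle library MS-1 held the same estimated count as MS-9, a low-dose liver library at 8 h, for 85% of the 65166 targets listed (the highest share with any other library was 32.1%), so the 24 h values are given with and without it. The difference was called for 1563 of 20156 transcripts at 24 h (7.75%), and for 2825 of 20557 (13.7%) without MS-1. Of the transcripts with a called difference at 8 h, 2853 were tested at 24 h, where 73.2% had the same sign and 365 (12.8%) were called with that sign. Of the transcripts not called at 8 h, 59.4% had the same sign and 5.38% were called with it. Without MS-1 these values were 86.2%, 933 (32.7%), 63.6% and 9.05%. Leaving out any other 24 h library in turn gave 281 to 383 transcripts called with the same sign.

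The classes held their sign at 24 h to different degrees. All 5 opposite and 18 of 19 kidney-only transcripts had the same sign, and 73.3% of the liver-only class did. Without MS-1 the values were 5, 17 of 19 and 87.4%. In the same-sign class 17 of 83 (20.5%) had the same sign, but without MS-1 the number was 57 (68.7%). ENSRNOT00000018170 had a difference of 2.05 at 24 h (adjusted p = 0.101, edgeR), and of 3.38 without MS-1 (adjusted p = 0.000396). For ENSRNOT00000004475 it was -2.77 (adjusted p = 0.000253, edgeR) and for ENSRNOT00000004803 -2.85 (adjusted p = 0.00304), both of the same sign and called, as at 8 h. Without MS-1 they were -2.87 (adjusted p = 0.000121, edgeR) and -3.07 (adjusted p = 0.000825). ENSRNOT00000080410 had 2.48 (adjusted p = 0.344, edgeR) with all libraries and 6.75 (adjusted p = 0.00508) without MS-1.

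**Figure D4:**
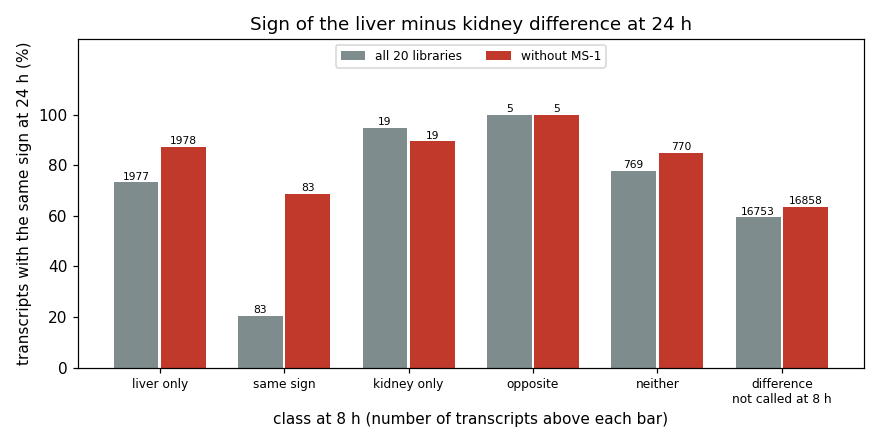
Bars give, for each class at 8 h, the percentage of transcripts whose difference of effects had the same sign at 24 h, with all 20 libraries of that time and without the liver vehicle library MS-1; the numbers above the bars count the transcripts tested at both times. The same-sign class goes from 20.5% to 68.7%, and transcripts without a called difference at 8 h stand at 59.4% and 63.6%.

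In the heart, fitted apart on its 10 high-dose and vehicle samples at 8 h, 3 of 17519 transcripts were called (0.0171%). All 3 had a called difference between liver and kidney, 2 as liver-only rises and 1 as a same-sign rise. Of the 16529 transcripts tested in both fits, 2655 had a called difference, and 3 heart calls are too few to compare with that share. The median heart change was 0.05 for liver-only rises, -0.05 for liver-only falls and 0.22 for same-sign rises, against -0.000511 for all transcripts tested.

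The count of called differences moved most with MS-100. Leaving out each of the 20 libraries in turn gave 2383 to 3293 called differences, except for MS-100. Liver calls ranged from 3594 to 4075, and kidney calls from 175 to 296 with MS-100 in the fit.

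**Figure D5:**
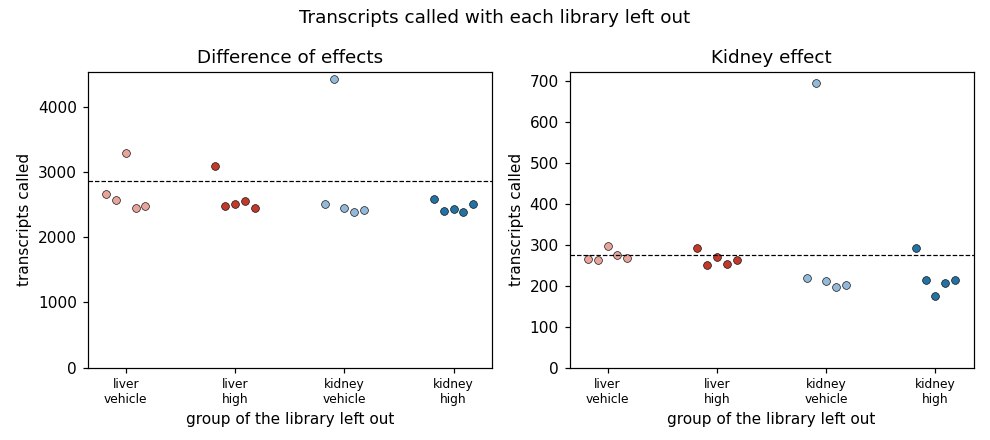
Each point is the number of transcripts called after leaving out a single library, placed by the group it came from; the left panel counts differences of effects, the right panel kidney changes, and dashed lines mark the numbers with all 20 libraries, 2862 and 275. Only the kidney vehicle library MS-100 gives 4430 and 696.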

How the data were processed

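Poly-A RNA of 20 libraries (5 each of liver and kidney, vehicle and high dose, 8 h) was compared. The authors pseudo-aligned 75-bp read pairs (KAPA Stranded mRNA, HiSeq3000) with kallisto 0.42.2 to the rat transcriptome Rnor_6.0, per the labels' processing notes and the study's methods, and the deposited tables give each target's estimated count, in which a read shared by several targets is divided among them, and TPM, scaled by length and library by the authors. Besides 40071 transcripts, 25095 genomic intervals were listed, and these were left out of the fits. Counts were not whole in at least 1 library for 61.2% of the transcripts tested and 50.6% of those with a called difference.

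Estimated counts were rounded and fitted in edgeR 4.0.16 (R 4.3.3) with its default filter by group, TMM scaling and quasi-likelihood test, as 1 model with a term for each of the 4 groups. Contrasts were the high-dose effect in each organ and their difference (liver minus kidney), with Benjamini-Hochberg adjustment over all 19891 transcripts tested. SEs were derived from the F statistic. The study's thresholds, an adjusted p of 0.01 and 0.60 on the natural-log scale, were applied, the latter to fold changes of single organs only. CPM values are TMM-scaled. The level per length between organs used log2(mean TPM + 0.1). Groups with 3 counts or fewer were given as ratios with 95% exact binomial intervals or as bounds, which cover counting error only. No 2 libraries of the 190 pairs looked alike beyond 3.42% of transcripts within 1 count. The study's methods give 5 rats per group.

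Transcripts were described in the order of the absolute difference within each class (up to 5 opposite, 5 liver-only rises, 5 liver-only falls, 4 kidney-only rises, 3 kidney-only falls and 3 same-sign, of at least 2 CPM on average in each organ), then up to 3 with the smallest uncalled difference and up to 3 rises and 3 falls restricted to liver. The 2 CPM limit applies to means over both doses, so a transcript could pass it through its raised group alone. At most 4 identifiers are printed. The opposite transcript below 2 CPM was added after its values were seen. The comparison and the rules were chosen with earlier results of these data known.

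Gene lists, markers and sums per gene could not be used because no table used here pairs transcripts with genes. On simulated counts for this comparison, with 200 changed transcripts among 19370 tested, edgeR called 14.0% of differences of 1 and 56.0% of differences of 2 on the log2 scale and 0 unchanged transcripts, and DESeq2 called 30.0%, 68.0% and 16 unchanged ones. With nothing changed, edgeR called 0 and DESeq2 4. The simulated libraries were independent, with no rat pairs and no library set apart from its group. Changes were placed only in high-dose livers and only in transcripts above a limit on mean counts. The simulation therefore does not give the rate of false calls in the data. Alternatives were DESeq2 1.42.0, other filters and scalings, limma 3.58.1 on log2 of TPM with a pseudocount of 1 or 0.1, all 30 samples at 8 h, intervals in the fit, a term for library numbers above 90, libraries numbered up to 90, each organ alone, other thresholds and leaving out each library. Figures were made in Python 3.11.15 with matplotlib 3.10.9.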

Additional observations from a re-analysis of the deposited data

Results flagged for a closer look

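The test of the difference between organs passed for 2862 transcripts. Among those described, the difference (liver minus kidney, log2 scale) was 4.78 for ENSRNOT00000018170, 3.16 for the opposite transcript of 3346 bases, 3.12 for that of 3754 bases, -2.44 for ENSRNOT00000004475 and -3.35 for the opposite transcript of 1035 bases. It was 8.97 for ENSRNOT00000080410 and 6.70 for the second liver-only rise, and -4.32 for ENSRNOT00000004803 and -4.01 for the second liver-only fall. The kidney-only rises had -2.44 and -2.21, the kidney-only falls 9.66 and 2.32, and the same-sign rises 3.73 and 3.72. The fitted values of ENSRNOT00000080410 and of the first kidney-only fall rest on a group at or near 0 counts.

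A single library stood far from the other 4 of its group in 6 of 72 groups examined for the described transcripts, library totals and interval shares, where chance gives about 1 in 20. In vehicle livers, MS-16 held 23.4 CPM of the opposite transcript of 3754 bases (others 9.27 to 12.4), MS-13 held 0.912 CPM of that of 1035 bases (others 1.84 to 1.93), and MS-29 held 0.0557 CPM of ENSRNOT00000080410 (others 0). In vehicle kidneys, MS-100 held 17.3 CPM of the transcript of 1035 bases (others 3.06 to 4.96). The share of counts on genomic intervals was 28.9% in MS-14 (other high-dose livers 4.45% to 8.19%) and 23.6% in MS-16 (other vehicle livers 4.08% to 8.76%).

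The genomic intervals, which no comparison above uses, also differed between organs. With intervals and transcripts in the same fit, 795 of 12846 intervals tested (6.19%) had a called difference of effects by edgeR's quasi-likelihood test, with the liver effect higher in 403, and 2295 were called in liver and 279 in kidney.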

How the results depend on the processing

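The labels tie no liver library to a kidney library, and replicate numbers were given in accession order. For 6 of the 10 liver libraries a kidney library of the same dose has a number higher by 30. The numbers of the heart libraries at 8 h follow those of the liver libraries at a constant step within each dose. The deviations of the 6 liver and kidney pairs from their group means were compared over 12224 transcripts. Their correlations were -0.17 to 0.54, above 0.1 in 4 of 6, and in 3 higher than with any other kidney of the dose. Such correlations cannot decide whether the numbers mark a rat, so a pairing remains possible and the main fit ignores it. A fit to the 12 libraries of these pairs called 316 differences, and 5 with the pair as a replicate block (5401 and 5037 at an unadjusted p under 0.05, edgeR). The classes were not recomputed there. Counts per gene could not be made without a table of transcripts and genes.

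With all libraries the counts were 2862 differences, 3849 liver and 275 kidney calls, and 1984, 83, 19, 5 and 771 transcripts in the liver-only, same-sign, kidney-only, opposite and neither classes. The liver-only class stayed within 1.5 times of its count under every alternative but limma on log2(TPM + 1), and the called differences under every one but limma, an adjusted p of 0.05 (5161), the omission of MS-100 and the fits to 12 libraries. DESeq2 gave 583 kidney calls, 91 kidney-only, 22 opposite and 1441 neither. On log2(TPM + 1), limma gave 1790 differences, 2505 liver calls, 1217 liver-only, 69 kidney-only and 422 neither. On log2(TPM + 0.1) it gave 1747 differences, of which 81.9% were higher in liver, 39 kidney-only and 132 neither. The median difference over all transcripts was 0.06 and shifted by 0.06 and 0.13 with these pseudocounts of 1 and 0.1, and the causes were not tested. DESeq2 size factors gave 2936 differences, 52.2% higher in liver. No filter gave 2397, 49.5% higher in liver. All 30 samples at 8 h gave 11 opposite and 34 kidney-only. Intervals in the fit gave 457 neither. Libraries numbered up to 90 alone, which leaves 2 high-dose kidneys, gave 77 kidney calls, 23 same-sign, 7 kidney-only, 3 opposite and 486 neither. Transcripts expressed in both organs gave 9 opposite. The term for library numbers above 90 gave 2498 differences. Without MS-1, 933 differences kept their sign and were called at 24 h.

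Leaving out each library gave 2383 to 4430 differences, 3594 to 4075 liver and 175 to 696 kidney calls, 1713 to 2245 liver-only, 65 to 95 same-sign, 11 to 159 kidney-only, 3 to 37 opposite and 522 to 1894 neither transcripts, MS-100 giving the highest value of each but the liver calls. At 24 h it gave 281 to 933. Each liver library left out took the share of differences higher in liver from 59.3% to between 49% and 51%, and the cause was not tested. The omission of MS-16 and MS-14, of 24 h libraries other than MS-1, the fits to 12 libraries, the vehicle levels without MS-1 and the counts by direction without MS-100 were chosen after seeing the data.

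For the transcripts named by the rule, the call of the difference, or its absence, was the same in 1013 of the recomputed values and a call was lost in 40, with no change of sign among called ones. The third kidney-only fall (3809 bases) lost it in 25 of 33, and the losses were otherwise in 2 transcripts measured mainly in liver. Depth limits what transcripts near 0 counts in an organ can show.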
